A study of Mus musculus with 6 samples.

Results

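The let-7 passenger strands are the 3p arms of the let-7 hairpins, and 10 of them were listed by name among the 1364 miRNAs of the deposited small RNA counts. They were mmu-let-7a-1-3p, mmu-let-7a-2-3p, mmu-let-7b-3p, mmu-let-7c-1-3p, mmu-let-7d-3p, mmu-let-7e-3p, mmu-let-7f-1-3p, mmu-let-7f-2-3p, mmu-let-7g-3p and mmu-let-7i-3p (the species prefix is left out from here on), and they were taken by name from the deposited table. All 10 had counts in the nucleus accumbens (NAc), a forebrain region of the reward circuit. The saline group consisted of 3 libraries from adult male C57BL/6N mice, 7 to 8 weeks old, that received saline (1 ml/kg) during the 6 conditioning days of a conditioned place preference (CPP) procedure. The morphine group consisted of 3 libraries from mice of the same strain, sex and age that received morphine (10 mg/kg) in the same procedure. The paper describes morphine or saline injections in sessions alternating between morning and afternoon, and scores a morphine-paired against a saline-paired chamber. By that description the morphine group also had saline sessions. Both groups were handled, injected and tested, and NAc tissue was taken 0.5 h after the test on day 7. The comparison asks which small RNAs differ in the NAc between mice trained with the drug and mice trained with its vehicle. The sample records describe 2 mice per library while a figure legend of the study names 1 mouse for each, and which of these holds was not settled here.

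A let-7 hairpin is cut by the nucleases Drosha and Dicer into a short duplex, from which an Argonaute protein keeps mainly the 5p arm as the guide and releases the 3p arm, the passenger, which is mostly degraded. Several let-7 guides are made from more than 1 hairpin and cannot be assigned to a gene from their sequence, whereas the passengers differ enough to name the hairpin they came from, with an exception given below. The let-7 guides are among the most abundant small RNAs of the adult brain, where they are known to repress growth and stem cell genes such as Lin28a and Hmga2. LIN28 proteins in turn bind let-7 precursors and block their processing.

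The passenger sequences are shown because they carry the information on the locus and because most of them have a seed of their own, unlike the guides. They come from RefSeq annotation of GRCm38.p6, in which all 10 were matched, and capitals mark the seed, bases 2 to 8 from the 5′ end.
let-7a-1-3p: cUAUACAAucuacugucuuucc
let-7b-3p: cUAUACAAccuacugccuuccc
let-7f-1-3p: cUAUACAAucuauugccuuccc
let-7f-2-3p: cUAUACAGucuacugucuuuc
let-7d-3p: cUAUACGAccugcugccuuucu
let-7e-3p: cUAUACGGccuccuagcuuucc
let-7c-1-3p: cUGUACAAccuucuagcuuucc
let-7a-2-3p: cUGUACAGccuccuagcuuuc
let-7g-3p: aCUGUACAggccacugccuugc
let-7i-3p: cUGCGCAAgcuacugccuugcu
For comparison, the guides of 2 of these hairpins are given in the same way.
let-7d-5p: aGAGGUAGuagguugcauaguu
let-7i-5p: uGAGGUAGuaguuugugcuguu

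The 8 let-7 guides, let-7a-5p to let-7i-5p, shared 1 seed and differed from each other by 1 to 6 bases, with a median of 3. The 10 passengers had 8 distinct seeds and differed by 2 to 11 bases, with a median of 6. The seed UAUACAA was shared by let-7a-1-3p, let-7b-3p and let-7f-1-3p, and also by miR-98-3p, the passenger of the let-7 family member miR-98. The closest pairs were let-7a-1-3p with let-7f-2-3p and let-7b-3p with let-7f-1-3p, each 2 bases apart. From let-7b-3p to let-7f-1-3p the substitutions, counted from the 5′ end, were C9U and C13U. A read with such mismatches could be assigned to either strand of a close pair, and the mismatches that the authors allowed are not given in the sources used here. let-7c-2-3p has a RefSeq sequence identical to that of let-7a-1-3p, so counts under the name let-7a-1-3p could come from either hairpin.

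In GRCm38 the passengers lie on 7 chromosomes. On the minus strand of chromosome 13, let-7a-1-3p (chr13:48538188-48538209), let-7f-1-3p (chr13:48537833-48537854) and let-7d-3p (chr13:48536024-48536045) lie in exons of the lincRNA gene 6720427I07Rik, with 261 bases between the hairpins of let-7a-1 and let-7f-1 and 1714 between those of let-7f-1 and let-7d. let-7b-3p (chr15:85707379-85707400, plus strand) lies in an exon of Lncppara, 621 bases beyond the let-7c-2 hairpin. let-7i-3p (chr10:122985642-122985663, minus strand) lies in an exon of the transcribed pseudogene D630033A02Rik. The other passengers are intronic and lie on the plus strand. let-7a-2-3p (chr9:41536777-41536797) lies in introns of the non-coding genes 3110039I08Rik and Gm49317, let-7g-3p (chr9:106178902-106178923) in an intron of Wdr82, and let-7f-2-3p (chrX:151912403-151912423) in an intron of Huwe1. let-7e-3p (chr17:17830411-17830432) lies in an intron of Spaca6, between miR-99b and miR-125a, and let-7c-1-3p (chr16:77599717-77599738) in an intron of Mir99ahg, 656 bases from miR-99a. No let-7 arm overlaps an annotated miRNA of the opposite strand.

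The libraries held 4183333 to 9842050 counts, and the 10 passengers together held 28601 counts, of which 25033 were let-7d-3p. Intervals and floors below cover counting error only, since PCR reads without molecular identifiers are not independent molecules. Across the miRNAs that had 10 or more counts, saline replicate 2 stood apart from the rest of its group. Its Spearman correlation with the other saline libraries was 0.869 and 0.874, and with the morphine libraries 0.907 to 0.926, while saline replicates 1 and 3 correlated at 0.952. Passenger and arm ratio calls are therefore also given without this library. Of the 4 brain miRNAs (miR-9-5p, miR-124-3p, miR-128-3p and miR-138-5p), all with counts, miR-124-3p, a neuronal miRNA, was lower in morphine (1569 against 5796 CPM, edgeR adjusted p = 0.0195), and the sum was 127617 to 272040 CPM in saline and 177125 to 205454 CPM in morphine, where CPM is the count scaled to a common library size after TMM normalization. The 2 endothelial miRNAs, miR-126a-3p and miR-126a-5p, summed to 1485 to 5002 CPM in saline and 10984 to 16264 CPM in morphine. The 3 choroid plexus and ependyma miRNAs summed to 1945 to 2766 CPM in saline and 939 to 991 CPM in morphine, and the 3 red blood cell miRNAs to 208 to 311 and 358 to 571 CPM. Each of these 3 sums moved with 1 called miRNA, miR-126a-3p (log2 fold change 2.42), miR-204-5p (-1.50) and miR-451a (1.57), while 1 or more of the others on the same list had a log2 fold change of the opposite sign and no call. The sums of the oligodendrocyte, leukocyte and muscle miRNAs overlapped between the groups, although miR-206-3p of muscle was called lower (-2.06), and the liver miRNA miR-122-5p was at 7.95 to 56.4 CPM in saline and 5.18 to 5.75 CPM in morphine. The part of these values in the passenger values was not tested. In tissue RNA, fewer cells of a type and less RNA per cell cannot be told apart.

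Levels of the passengers spanned 3 orders of magnitude and 1 strand dominated. CPM has no length term, and the strands compared are 21 or 22 bases long. let-7d-3p took 91.6%, 67.6% and 88.8% of all passenger counts in saline replicates 1, 2 and 3, and 84.8%, 89.9% and 89.8% in morphine replicates 1, 2 and 3. In the saline group the mean levels ran from let-7d-3p at 628 CPM through let-7e-3p (36.6), let-7b-3p (19.9), let-7a-1-3p (16.8), let-7i-3p (11.5), let-7a-2-3p (3.02), let-7c-1-3p (1.29), let-7f-2-3p (1.12) and let-7g-3p (1.05) to let-7f-1-3p at 0.623 CPM. Neighbours in this order did not overlap at 2 steps, from let-7d-3p to let-7e-3p, 17.2-fold, and from let-7i-3p to let-7a-2-3p, 3.82-fold. At every other step the ranges of neighbours overlapped. In the morphine group let-7d-3p (521 CPM) was followed by let-7a-1-3p (25.8), let-7e-3p (17.1), let-7b-3p (9.94), let-7i-3p (4.45), let-7g-3p (4.02), let-7f-1-3p (2.96), let-7f-2-3p (2.07), let-7c-1-3p (1.89) and let-7a-2-3p (0.629). There the steps without overlap were from let-7d-3p to let-7a-1-3p, 20.2-fold, and from let-7c-1-3p to let-7a-2-3p, 2.999-fold. The strand with the lowest mean in saline, let-7f-1-3p, was seventh in morphine, and let-7a-2-3p moved from sixth to last.

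**Figure D1:**
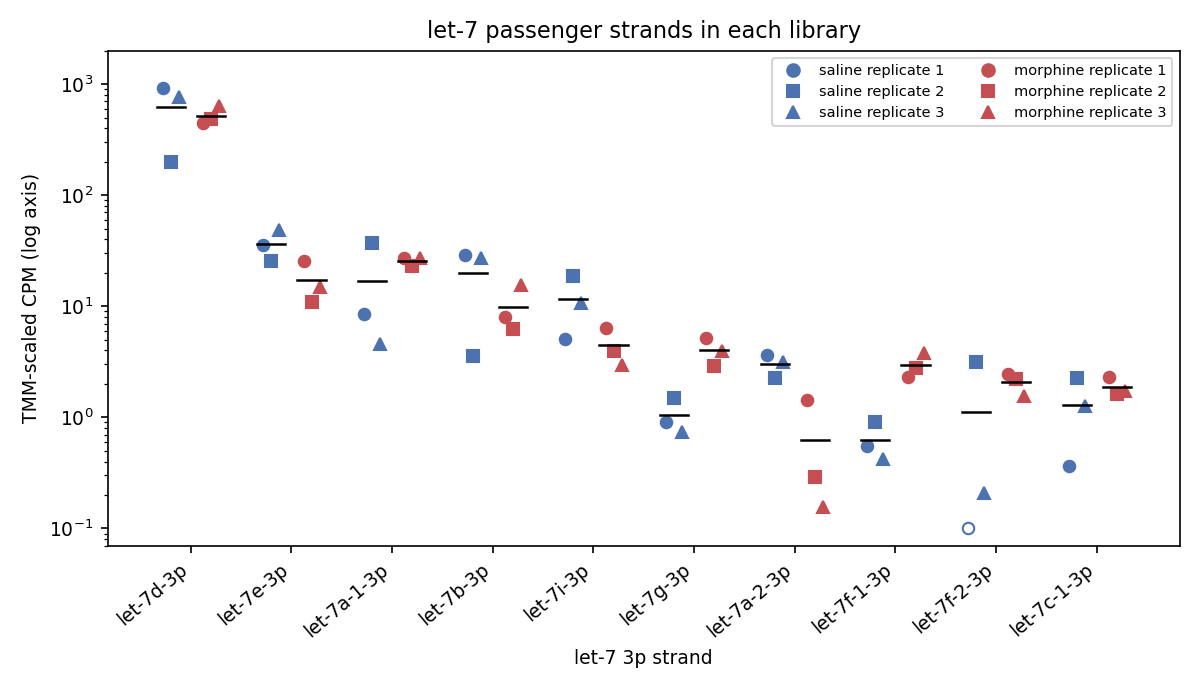
TMM-scaled CPM (log axis) of the 10 let-7 3p strands in each of the 3 saline (blue) and 3 morphine (red) libraries, ordered by mean level, with black bars for group means. let-7d-3p lies between 198 and 917 CPM and every other strand below 50 CPM. The open marker at the foot of the axis is the count of 0 of let-7f-2-3p in saline replicate 1.

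For differences between the groups, a strand was called at a |log2 fold change| of at least 0.58 with an unadjusted p of at most 0.05 by edgeR's quasi-likelihood test. Over all 1364 miRNAs, 264 or 19.4% were called, and 9.68% in each direction. Of the 10 passengers, 4 were called, let-7f-1-3p and let-7g-3p higher and let-7a-2-3p and let-7i-3p lower in the morphine group. With Benjamini-Hochberg adjustment over all miRNAs, 0 of the 10 passed an adjusted p of 0.05 with edgeR, against 5.21% of all miRNAs. DESeq2 passed 2, let-7f-1-3p and let-7g-3p, at adjusted p values of 0.0353 and 0.0401. The share of all miRNAs that passed adjustment with DESeq2 is not given here, so these 2 cannot be set against it. The group values of 4 passengers did not overlap in TMM-scaled CPM, against 22.1% of all miRNAs. Scaled by library totals it was also 4, against 21.3%, with let-7i-3p in place of let-7e-3p. The median log2 fold change of the 10 was 0.13, with 5 higher and 5 lower, and that of all miRNAs was -0.15. In this main edgeR fit of all 1364 miRNAs, the 4 calls hold at the unadjusted level only. With filterByExpr let-7f-1-3p passed adjustment (edgeR adjusted p = 0.0463), and the GC correction is given below.

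let-7f-1-3p, whose locus lies between those of let-7a-1 and let-7d, had 3, 6 and 4 counts in saline replicates 1, 2 and 3 and 21, 19 and 24 counts in morphine replicates 1, 2 and 3. In TMM-scaled CPM these were 0.549, 0.900 and 0.420 in saline and 2.32, 2.78 and 3.77 in morphine. Every morphine library was above every saline library, saline replicate 2 included. By the edgeR fit the level was 4.69-fold higher in morphine, a log2 fold change of 2.23 (SE 0.77, edgeR adjusted p = 0.0852). Leaving out morphine replicate 3 gave 2.02 and ended the call.

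let-7g-3p, from the intron of Wdr82, had 5, 10 and 7 counts in saline and 47, 20 and 25 counts in morphine. Its levels were 0.915, 1.4998 and 0.734 CPM in saline and 5.20, 2.93 and 3.93 CPM in morphine, again without overlap. It was 3.82-fold higher in morphine (log2 fold change 1.93, SE 0.71, edgeR adjusted p = 0.108). Its call held in all 15 alternative settings tried, with log2 fold changes from 1.68 to 2.29.

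let-7a-2-3p, from the locus that also holds miR-100, had 20, 15 and 30 counts in saline and 13, 2 and 1 counts in morphine. Its levels were 3.66, 2.25 and 3.15 CPM in saline and 1.44, 0.293 and 0.157 CPM in morphine. The counts of 2 and 1 in morphine replicates 2 and 3 are under a floor of 3 counts. The highest morphine library, replicate 1, was below the lowest saline library, replicate 2. Its log2 fold change was -2.17 (SE 0.82, edgeR adjusted p = 0.126). Leaving out morphine replicate 2 or 3 moved it to -1.83 and -1.75 and ended the call, and without morphine replicate 1 it was -3.54. The value of -3.54 rests on morphine counts under the floor alone.

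let-7i-3p had 28, 125 and 102 counts in saline and 58, 27 and 19 counts in morphine, or 5.13, 18.7 and 10.7 CPM against 6.42, 3.96 and 2.98 CPM. The groups overlapped, because morphine replicate 1 lay above saline replicate 1. The log2 fold change was -1.36 (SE 0.64, edgeR adjusted p = 0.244). This call was lost in 7 of 15 settings, among them the GC correction (log2 fold change -1.12) and the omission of saline replicate 2 (-0.83).

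let-7e-3p, the second most abundant passenger in saline, had 196, 170 and 461 counts in saline and 229, 75 and 95 counts in morphine. Its levels were 35.9, 25.5 and 48.4 CPM in saline and 25.3, 10.99 and 14.9 CPM in morphine. The groups did not overlap, although saline replicate 2 and morphine replicate 1 were almost equal. The log2 fold change of -1.10 (SE 0.55, edgeR adjusted p = 0.283) had an unadjusted p of 0.0566, just outside the call, and 8 of 15 settings called it lower.

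let-7b-3p had 158, 24 and 260 counts in saline and 72, 43 and 99 counts in morphine, which is 28.9, 3.60 and 27.3 CPM against 7.97, 6.30 and 15.5 CPM. Saline replicate 2 was the lowest of all 6 libraries, and the other saline libraries were the 2 highest. The log2 fold change was -1.005 (SE 0.67, edgeR adjusted p = 0.461), and 4 of 15 settings called it lower, library total scaling giving the largest change (-1.54).

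let-7d-3p had 5012, 1321 and 7320 counts in saline and 4055, 3293 and 4032 counts in morphine. Its levels were 917, 198 and 768 CPM in saline and 449, 482 and 633 CPM in morphine. Here too saline replicate 2 was the lowest library and saline replicates 1 and 3 the highest. The log2 fold change was -0.27 (SE 0.52, edgeR adjusted p = 0.788), with the opposite sign, 0.20, when saline replicate 1 was left out. The dominant passenger therefore showed no difference beyond the spread of the saline libraries.

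let-7a-1-3p had the opposite pattern to let-7d-3p in the saline group. Its locus lies in the same lincRNA gene, but its counts could also come from the let-7c-2 hairpin. Its counts were 47, 247 and 44 in saline and 244, 158 and 173 in morphine, or 8.60, 37.0 and 4.61 CPM against 27.0, 23.2 and 27.2 CPM. Saline replicate 2 was the highest library, and saline replicates 1 and 3 were the lowest. On average it was 1.54-fold higher in morphine (log2 fold change 0.62, SE 0.64, edgeR adjusted p = 0.584), within that spread.

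The last 2 passengers were low and variable. let-7f-2-3p had 0, 21 and 2 counts in saline and 22, 15 and 10 in morphine, and its highest level, 3.15 CPM, was in saline replicate 2, against 1.57 to 2.43 CPM in morphine. A count of 0 in saline replicate 1 is under a floor of 3 counts, which is 0.717 CPM before TMM scaling. The count of 2 in saline replicate 3 is under this floor as well. The log2 fold change was 0.89 (SE 0.95, edgeR adjusted p = 0.584). let-7c-1-3p had 2, 15 and 12 counts in saline, the first of them under the floor, and 21, 11 and 11 in morphine. Its levels of 0.366 to 2.25 CPM and 1.61 to 2.32 CPM overlapped. Its log2 fold change was 0.53 (SE 0.77, edgeR adjusted p = 0.701). For both strands the difference was within the spread of the saline libraries.

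Beside the passengers, the guides of the same hairpins were all higher on average in the morphine libraries. Of the 8 guides 5 were called higher and 0 lower, against 9.68% of all miRNAs in each direction. Their median log2 fold change was 1.002, and 1 passed adjustment over all miRNAs, against 5.21% of all miRNAs. let-7i-5p rose from 8621, 18956 and 7933 CPM in saline replicates 1, 2 and 3 to 35109, 35598 and 45927 CPM in morphine (log2 fold change 1.72, SE 0.49, edgeR adjusted p = 0.0406). let-7g-5p had 5861, 16576 and 5577 CPM in saline and 29256, 27082 and 31563 CPM in morphine, with a log2 fold change of 1.65 (SE 0.50, edgeR adjusted p = 0.0510). The other called guides were let-7f-5p (log2 fold change 1.24), let-7c-5p (1.07) and let-7e-5p (0.93). These 3 calls were lost in 8, 7 and 10 of the alternative settings, those of let-7c-5p and let-7e-5p with library total scaling among them, whereas let-7g-5p and let-7i-5p kept theirs in all 15. let-7d-5p (0.60), let-7b-5p (0.50) and let-7a-5p (0.42) were not called. With the GC correction described below, 2 guides were called, against 224 of 1089 miRNAs, and let-7a-5p and let-7d-5p changed sign, to -0.61 and -0.12. Guide and passenger had log2 fold changes of opposite sign for let-7b, let-7d, let-7e, let-7i and let-7a-2-3p, with both strands called only in let-7i, while in let-7g both were called higher.

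**Figure D2:**
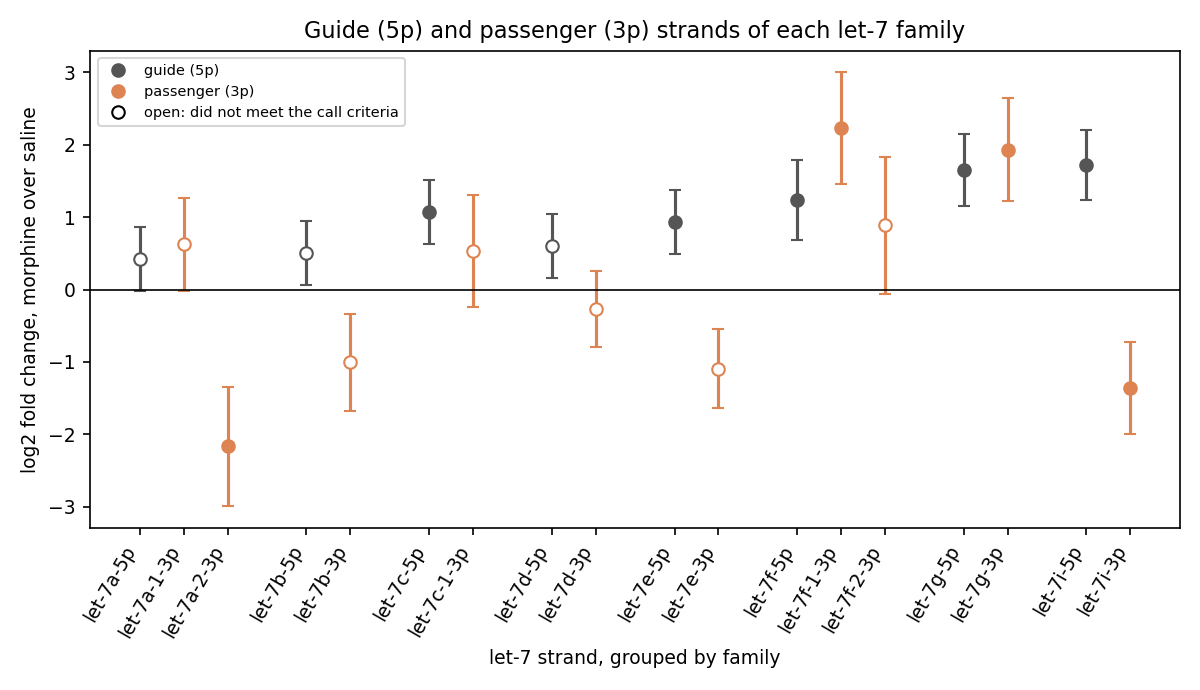
Log2 fold change (morphine over saline) of the 8 let-7 guides (grey) and the 10 passengers (orange), grouped by family. Bars are standard errors of the edgeR fit, and open markers did not meet the call criteria. The guides lie between 0.42 and 1.72, and the passengers between -2.17 and 2.23.

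Arm ratios put the 2 strands of a hairpin family side by side within a library, so that the scaling of libraries cancels. For let-7a the 2 listed passengers were summed against let-7a-5p, and for let-7f likewise, because their guides cannot be split by locus. For let-7c only let-7c-1-3p entered, although let-7c-5p also comes from the let-7c-2 hairpin. Reads of let-7c-2-3p could be counted under let-7a-1-3p, so the let-7c share can be too low and the let-7a share too high. The term for a change of the 3p to 5p ratio was fitted for all 416 families with both arms, of which 17 or 4.09% passed an adjusted p of 0.05, 9 of them (2.16%) with the passenger lower in morphine. Of the 8 let-7 families 1 passed, with the passenger lower. The median change of the let-7 families was -0.51 (log2), with 5 lower and 3 higher, against 0.17 over all families.

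In the let-7i family the passenger was 0.0594%, 0.0988% and 0.135% of the family's counts in saline replicates 1, 2 and 3. In morphine replicates 1, 2 and 3 it was 0.0183%, 0.0111% and 0.00650%. The exact 95% binomial interval of the lowest saline share, 0.0395% to 0.0859%, lay above that of the highest morphine share, 0.0139% to 0.0236%. All saline libraries were above all morphine libraries, and the groups did not overlap, in either direction, in 28.1% of the 416 families. The ratio of let-7i-3p to let-7i-5p was 8.38-fold lower in morphine, a log2 change of -3.07 (SE 0.57, edgeR adjusted p = 0.00998). It was -2.79 without saline replicate 3 and -2.70 without morphine replicate 3, with edgeR adjusted p values of 0.106 and 0.116.

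let-7e had the next largest change. Its passenger was 2.09%, 1.16% and 2.34% of the family's counts in saline and 0.625%, 0.345% and 0.370% in morphine. No morphine library reached the lowest saline library, saline replicate 2. The ratio was 4.20-fold lower in morphine (log2 change -2.07, SE 0.53, edgeR adjusted p = 0.0550), just outside the threshold, and it passed with DESeq2 (adjusted p = 0.00528), with a minimum of 10 counts in each arm and without saline replicate 2.

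The let-7d hairpin gave by far the highest passenger share of the family. let-7d-3p was 42.8%, 11.99% and 34.1% of the let-7d counts in saline and 16.9%, 20.5% and 22.2% in morphine. Saline replicate 2 was below every morphine library and the other saline libraries were above them. The means were 29.6% ± 15.9 (SD, n = 3) and 19.8% ± 2.71 (SD, n = 3), and the log2 change of -0.64 (SE 0.66, edgeR adjusted p = 0.626) was within that spread.

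In the remaining families the passenger was below 1.1% in every library. The let-7b share was 1.02%, 0.181% and 0.827% in saline and 0.212%, 0.186% and 0.359% in morphine (log2 change -1.22, SE 0.70, edgeR adjusted p = 0.380). For let-7a the mean share was 0.283% ± 0.178 in saline and 0.309% ± 0.0126 in morphine (SD, n = 3). let-7c, let-7f and let-7g had mean shares of 0.0149%, 0.00767% and 0.0126% in saline and 0.0111%, 0.0108% and 0.0137% in morphine. Their log2 changes of -0.39, 0.45 and 0.14 were smaller than their standard errors of 0.62, 0.48 and 0.48, although the let-7f shares did not overlap between the groups. let-7g-3p was thus called higher together with a called guide, with a ratio that differed by less than its standard error (1.40, edgeR adjusted p = 0.209, with the GC correction described below), whereas let-7i-3p was lower beside a higher guide.

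**Figure D3:**
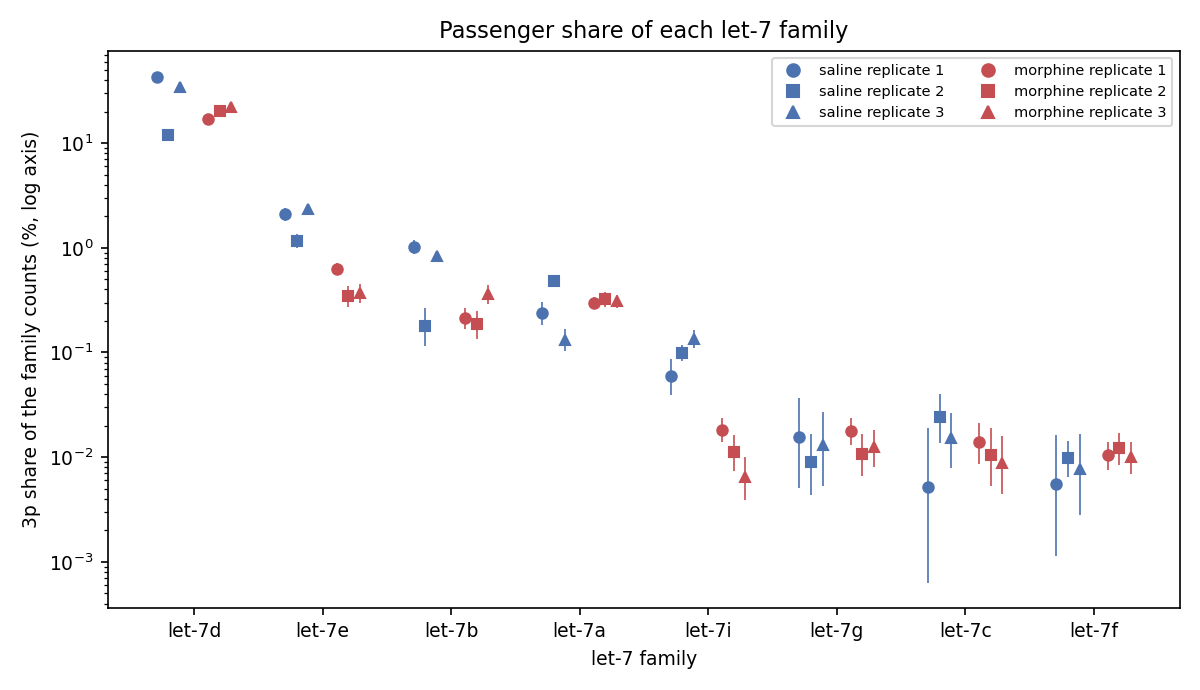
Share of each let-7 family's counts that came from the passenger (%, log axis), in the 3 saline (blue) and 3 morphine (red) libraries. Bars are exact 95% binomial intervals of counting error. The shares run from 42.8% for let-7d to 0.00525% for let-7c in saline replicate 1, and the let-7e and let-7i shares are lower in all 3 morphine libraries than in all 3 saline libraries. The let-7c share leaves out let-7c-2-3p, which has no name in the counts.

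Summed over the members, the passengers were 2.31%, 0.293% and 1.99% of the let-7 counts in saline replicates 1, 2 and 3 and 0.361%, 0.397% and 0.413% in morphine replicates 1, 2 and 3. The group means were 1.53% ± 1.08 (SD, n = 3) and 0.390% ± 0.0269 (SD, n = 3). Saline replicate 2 had the lowest share of all, so the groups overlapped in this sum, which is mostly let-7d-3p. The other 9 passengers had 459, 633 and 922 counts in saline and 727, 370 and 457 in morphine. The guides had 230943, 664752 and 406639 counts in saline and 1321544, 919432 and 1082170 in morphine. The share of these 9 passengers was thus higher in every saline library than in every morphine library. Guides and passengers of let-7 together were 5.65%, 7.999% and 5.75% of the counts in saline and 13.5%, 12.7% and 14.4% in morphine.

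Of the 3 passengers named for the cluster on chromosome 13, let-7a-1-3p could also have counts from the let-7c-2 hairpin, outside the cluster. The 3 did not keep a fixed ratio to each other. These ratios were chosen after the values were seen and are a description. The count of let-7f-1-3p as a percent of that of let-7d-3p was 0.0599%, 0.454% and 0.0546% in saline and 0.518%, 0.577% and 0.595% in morphine. For let-7a-1-3p this percent was 0.938%, 18.7% and 0.601% in saline and 6.02%, 4.80% and 4.29% in morphine. In both cases saline replicates 1 and 3 were the lowest libraries, and saline replicate 2 was just below the morphine libraries for let-7f-1-3p, from 6 counts, and above them for let-7a-1-3p. Between the guides, which come from more loci, the ratio of let-7f-5p to let-7d-5p was 8.07, 28.3 and 5.56 in saline and 20.7, 21.9 and 24.1 in morphine. The strands let-7b-3p and let-7f-1-3p share a seed and differ at 2 bases, and their ratio was 52.7, 4 and 65.0 in saline and 3.43, 2.26 and 4.13 in morphine. Among strands with the seed UAUACAA, log2 fold changes were 2.23 for let-7f-1-3p and 3.08 for miR-98-3p, both called, and 0.62 for let-7a-1-3p and -1.005 for let-7b-3p, not called, and differences between these strands were not tested.

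The fixed list of neighbours held the 8 guides, miR-98-5p, let-7j, let-7k, the other 3p strands of let-7 hairpins and the arms of miR-99, miR-100 and miR-125, which share transcripts with let-7 hairpins. let-7c-2-3p was not among the names of the table, and 16 of the 23 others were called, 10 higher and 6 lower, against 19.4% of all miRNAs. The seed mate miR-98-3p, which lies with let-7f-2 in Huwe1, had 1, 8 and 0 counts in saline and 25, 28 and 31 in morphine. Its log2 fold change was 3.08 (SE 0.94, edgeR adjusted p = 0.0507), and miR-98-5p from the same hairpin was also called higher (1.32). let-7j was called higher as well (1.87), and let-7k had 0, 0 and 1 counts in saline and 9, 0 and 5 in morphine. let-7k is counted among the 10 called higher, but no fold change is given at so few counts, and its call was lost in 10 alternative settings.

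Of the 6 cluster mate passengers of the miR-99, miR-100 and miR-125 families, 3 were called lower, against 9.68% of all miRNAs. These were miR-99a-3p (log2 fold change -2.19), miR-125a-3p (-1.46) and miR-125b-2-3p (-1.90, edgeR adjusted p = 0.0376). The call of miR-99a-3p (4, 35 and 5 counts in saline, 9, 0 and 2 in morphine) rests on saline replicate 2, without which its log2 fold change was -0.40, and that of miR-125a-3p was lost in 6 of 15 settings. miR-99b-3p, miR-100-3p and miR-125b-1-3p were not called, with log2 fold changes of -0.35, -0.27 and -0.73. Around let-7e, whose passenger had a log2 fold change of -1.10, both arms of miR-125a and the guide miR-99b-5p (-1.92, edgeR adjusted p = 0.0331) were called lower, while let-7e-5p was called higher. The neighbour of let-7c-1, miR-99a, had its guide called higher (2.32, edgeR adjusted p = 0.00441) and its passenger called lower only with saline replicate 2 included. Next to let-7a-2, miR-100-5p (-0.52) and miR-100-3p were not called. The passengers miR-125b-1-3p and miR-125b-2-3p lie in host genes of let-7a-2 and let-7c-1. Their shared guide miR-125b-5p was called lower (-1.77, edgeR adjusted p = 0.0365), a call kept in all 15 settings.

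By likeness of pattern over the 6 libraries (Pearson correlation of log2(CPM + 1), 400 candidate miRNAs), let-7d-3p was closest to miR-128-1-5p, miR-106b-3p and miR-574-3p, with r of 0.992, 0.985 and 0.976. let-7a-1-3p was closest to miR-542-3p, miR-30a-5p and miR-29a-5p, with r of 0.992, 0.990 and 0.980. let-7e-3p was closest to miR-365-3p, miR-181a-1-3p and miR-425-3p, with r of 0.992, 0.961 and 0.945. The 6 points share libraries and depth, and the values for let-7d-3p and let-7a-1-3p follow the separation of saline replicate 2 from saline replicates 1 and 3, so they are a description of these libraries.

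Without saline replicate 2 the number of passengers called rose from 4 to 8, all 8 with an edgeR adjusted p under 0.05, and so did the background, to 37.0% of miRNAs called and 29.1% after adjustment. The strands called higher were then let-7a-1-3p (log2 fold change 1.98), let-7f-1-3p (2.60), let-7f-2-3p (3.84) and let-7g-3p (2.29). The value of let-7f-2-3p rests on 0 and 2 counts in saline replicates 1 and 3, under the floor of 3 counts. Those called lower were let-7a-2-3p (-2.29), let-7b-3p (-1.50), let-7d-3p (-0.69) and let-7e-3p (-1.30). let-7c-1-3p (1.10) and let-7i-3p (-0.83) were not called. The ratio of passenger to guide passed in 4 let-7 families, let-7b (-1.90), let-7d (-1.34), let-7e (-2.36) and let-7i (-3.03), against 27.9% of families. Of the guides 7 of 8 were called, let-7a-5p (0.64) and let-7d-5p (0.63) in addition, and let-7f-5p was at 2.36. miR-98-3p was at 5.52, with only 1 and 0 counts in saline replicates 1 and 3, so the size of this value is uncertain. miR-125b-1-3p (-0.84) and miR-100-5p (-0.74) were called lower. Which of the saline libraries are typical of their group cannot be told from 3.

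GC content moved with the fold changes over all miRNAs, and the passengers range from 36.4% GC in let-7a-1-3p to 59.1% in let-7g-3p and let-7i-3p. Over 734 miRNAs the GC content of the mature strand and the log2 fold change had a Spearman correlation of -0.357, and of -0.0417 after a GC trend was removed in each library, an alternative added after the data were seen. After this correction let-7g-3p (log2 fold change 2.27, edgeR adjusted p = 0.0160) and let-7a-2-3p (-2.08, edgeR adjusted p = 0.0487) passed adjustment. let-7f-1-3p (1.72) kept its call, let-7b-3p (-1.06) gained one and let-7i-3p (-1.12) lost its call. The ratio of let-7i-3p to let-7i-5p still passed, with a log2 change of -2.04 (edgeR adjusted p = 0.0486), and that of let-7e was -1.27 (edgeR adjusted p = 0.166).

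**Figure D4:**
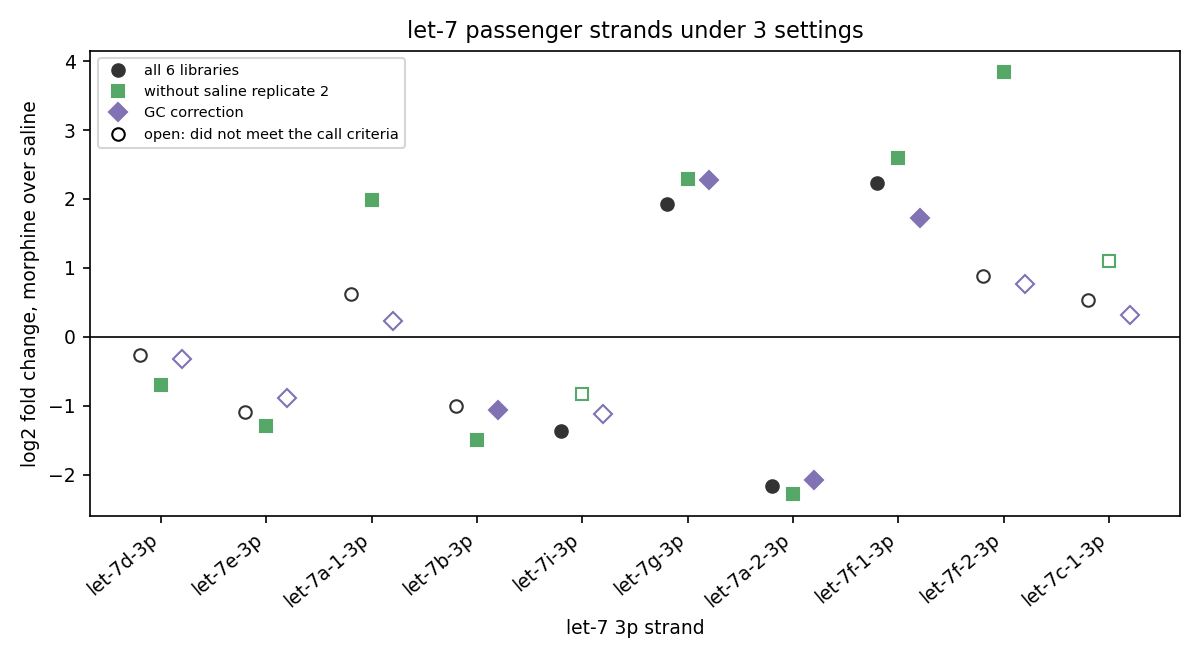
Log2 fold change (morphine over saline) of the 10 passengers with all 6 libraries (black), without saline replicate 2 (green) and with the GC correction (purple), and open markers did not meet the call criteria. Each of the 10 strands has the same sign in all 3 settings, and let-7f-2-3p moves most, from 0.89 to 3.84 without saline replicate 2. The latter value rests on 0 and 2 counts in the saline libraries that remain.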

How the data were processed

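Small RNA libraries of NAc tissue (3 saline, 3 morphine) were assigned to groups and replicates by the sample titles, which match the names of the table's columns, and 0 columns were not used. From 3 μg of total RNA per library, the authors discarded reads with adapter or poly-N sequence, of low quality, or outside 15 to 35 nt, filtered other RNA classes and repeats with Bowtie and matched the rest to miRBase. The authors deposited the unnormalized read count of each mature miRNA, for 1364 miRNAs, 1281 of them with a miRBase name. The deposited TPM values equal the counts rescaled by library totals (checked) and were not tested. The genome build, the miRBase release and the tool behind the calls are not given in the sources used here. Long RNA libraries were not analysed here.

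Counts were scaled with TMM and tested for all 1364 miRNAs with the quasi-likelihood test of edgeR 4.0.16 (R 4.3.3) without covariates, and p-values were adjusted by Benjamini-Hochberg over all of them. A miRNA was called at a |log2 fold change| of 0.58 or more with an unadjusted p of 0.05 or less, the criteria that the study states. The SE of a log2 fold change is its size divided by the square root of the F statistic. The arm ratio was the arm by treatment term of the same test with library and arm terms, over 416 families with at least 10 counts. Both fits were tested on simulated data. At an adjusted p under 0.05, the miRNA fit passed 90% of simulated log2 changes of size 3, and 5.76% of its passes were false. The arm fit passed 25.1% of simulated log2 ratio changes of size 2, and 6.7% of its passes were false. A family that did not pass may thus still have a changed ratio.

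Total counts per library were 4183333, 8335096 and 7211738 for saline and 9842050, 7290936 and 7562485 for morphine replicates 1, 2 and 3, so that a floor of 3 counts is 0.305 to 0.717 CPM before TMM scaling. Named were the 10 passengers, the let-7 guides and neighbours of a fixed list, and, for the 3 most abundant passengers, the 3 miRNAs of at least 10 CPM most correlated with each. The members and lists were chosen with earlier results of these data known. Sequences and positions are from RefSeq (GRCm38.p6), which held 1089 of the named miRNAs, and host genes from GENCODE vM21.

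Alternatives were scaling by relative log expression, by library totals or by upper quartiles, DESeq2 1.42.0, filterByExpr, a minimum of 10 counts, removal of the 10 most abundant miRNAs, a replicate block, the omission of each library and a |log2 fold change| of at least 1. The GC correction (a loess trend per library fitted on miRNAs with at least 300 counts) was added after the data were seen. Over 899 miRNAs, the deviations of same-numbered libraries from group means had correlations of -0.23, -0.285 and 0.139, so the numbers were not taken to pair them.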

Additional observations from a re-analysis of the deposited data

How the results depend on the processing

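The number of passengers called was 4 with all libraries and 1 to 8 when a library was left out, with 8 without saline replicate 2, 2 without morphine replicate 2 and 1 without morphine replicate 3. It stayed within 1.5 times in the 13 other settings, including a |log2 fold change| of at least 1. Of all miRNAs, 264 of 1364 were called with all libraries and 492 of 1328 without saline replicate 2. The numbers were 193 of 1336 without morphine replicate 2 and 188 of 1342 without morphine replicate 3. Passengers with an edgeR adjusted p under 0.05 were 0 with all libraries and 0 to 8 with a library left out. There was 1 with library total scaling, 1 with upper quartile scaling and 1 with filterByExpr, and there were 2 with the GC correction and 2 with DESeq2. Of all miRNAs, 5.21% passed in the main edgeR fit and 29.1% without saline replicate 2. This share is not given here for the other settings. Neighbours called numbered 10 without saline replicate 1, 10 without morphine replicate 3 and 10 with the GC correction, against 16, and ranged from 10 to 18 with a library left out. All miRNAs called numbered 239 of 1344 without saline replicate 1, 188 of 1342 without morphine replicate 3 and 224 of 1089 with the GC correction. The let-7 families whose arm ratio passed were 1 with all libraries, 2 with DESeq2, 2 with at least 10 counts in each arm and 0 to 4 with a library left out, with 0 without saline replicate 3 and 0 without morphine replicate 3. Of all families, 4.09% passed in the main edgeR fit and 27.9% without saline replicate 2, and the other shares are not given here. The cause of these changes was not tested.

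Among single strands, let-7d-3p ranged from -0.69 to 0.20 with a library left out and reversed without saline replicate 1. miR-100-3p ranged from -0.73 to 1.04, reversed without saline replicate 2 and, at 0.05, without morphine replicate 2, and reversed to 0.41 with the replicate block. With the GC correction let-7a-5p was at -0.61, let-7d-5p at -0.12 and miR-99b-3p at 0.32. With a library left out, the let-7g arm ratio ranged from -0.073 to 0.30 and reversed without saline replicate 2 (-0.064) or morphine replicate 1. With the GC correction it was 1.40. That of let-7a ranged from -0.14 to 0.81 and reversed without saline replicate 3. All of these were uncalled with all libraries, and so was each reversed value. The let-7 passenger share kept its direction in all 8 alternatives, a difference of -0.75 to -1.76 percentage points with a library left out and -0.13 without let-7d-3p.

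A fit with the replicate block gave 3 passengers called, 2 higher and 1 lower, and 0 at an adjusted p under 0.05, with the call of let-7i-3p lost (log2 fold change -1.28). Same-numbered libraries did not deviate together, so this is a loss under a shared number only. Library total scaling moved the median of all miRNAs by -0.25 and upper quartile scaling by -0.20 (log2), with 34.9% and 37.7% of calls higher against 50.0%. Without saline replicate 2 that median moved by 0.35. The planned addition of let-7c-2-3p could not be run, since the name is not in the table. Depth limits 5 passengers with means under 5 CPM in both groups.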
